A study of Mus musculus with 6 samples.

Results

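MeDIP-seq peaks in and around the olfactory receptor genes were examined in mouse primary mesangial cells, the contractile support cells of the kidney glomerulus. A peak was taken as a member when its summit lay inside, or within 5 kb of, a GENCODE vM1 gene on chromosomes 1 to 19 of mm9 whose symbol is Olfr followed by a number. The rule used the place of the summit only. It found 812 of the 567475 autosomal peaks, of which 106, 127 and 142 came from control replicates 1 to 3 and 147, 144 and 146 from TGF-β1 replicates 1 to 3. Overlaps of 1 bp or more joined these peaks to 245 regions, out of 166838 autosomal regions and 170444 regions in all. Of the 245 regions, 225 (91.8%) lay more than 5 kb from every other protein-coding gene, so nearly all of them belong to no other protein-coding gene by the same rule.

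The control group had 3 samples and the TGF-β1 group 3 samples, which received 10 ng/ml of the cytokine for 72 hours. Both groups grew in medium with 25.5 mM glucose, and the cells were between passages 3 and 6, so neither group stands for mesangial cells at normal glucose. The study speaks of biological replicates, but the labels do not say that the samples came from separate cultures, and p-values then measure only the spread between these samples. Each list held 81473 to 105520 peaks from 9407103 to 13291419 reads. All 3 TGF-β1 samples had more reads than any control sample, and so any difference in peak number between the groups cannot be told apart from one of depth. Between any pair of samples, the log2 pileups of regions present in all 6 samples correlated across regions with r from 0.682 to 0.804, where regions are not independent replicates.

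Olfactory receptors are G protein-coupled receptors, and their genes form the largest gene family of the mouse. An olfactory neuron expresses a single allele of a single receptor gene and keeps the others silent in compact chromatin, while most other tissues express few of them. Most of the genes have a short single coding exon and lie in arrays of close relatives. In MeDIP-seq an antibody to 5-methylcytosine pulls down sheared DNA, which favours fragments with several methylated CpG dinucleotides. A stretch with few CpG dinucleotides can therefore be methylated and still give no peak. Peaks were also called in some receptor regions with 0 CpG dinucleotides, so a peak alone does not show CpG methylation. Examples are chr4:118505798-118506294 at Olfr1333, with a peak in 2 samples, and chr11:73273077-73273462 near Olfr380, with a peak in 3.

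The sequences below are read from the plus strand of mm9, 200 bases around the summit, with each CpG in capitals. The first 5 are shown because their regions had the highest pileup (how many extended reads cover the summit) of all olfactory receptor regions with a peak in every sample. They run from a window with 14 CpG dinucleotides next to Olfr761 to a window with 0 CpG dinucleotides next to Olfr177. Of the 5, 1 lies in a receptor gene itself, in the coding exon of Olfr370.
Olfr461 chr6:40497473-40497672: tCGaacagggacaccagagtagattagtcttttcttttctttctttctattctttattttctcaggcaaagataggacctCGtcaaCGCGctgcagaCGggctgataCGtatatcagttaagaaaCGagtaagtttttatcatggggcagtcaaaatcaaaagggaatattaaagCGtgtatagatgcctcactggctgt
Olfr761 chr17:38091202-38091401: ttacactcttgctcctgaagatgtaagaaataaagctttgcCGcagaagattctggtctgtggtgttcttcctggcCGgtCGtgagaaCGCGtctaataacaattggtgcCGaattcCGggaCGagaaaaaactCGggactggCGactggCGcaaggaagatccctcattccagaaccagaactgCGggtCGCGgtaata
Olfr177 chr16:58867589-58867788: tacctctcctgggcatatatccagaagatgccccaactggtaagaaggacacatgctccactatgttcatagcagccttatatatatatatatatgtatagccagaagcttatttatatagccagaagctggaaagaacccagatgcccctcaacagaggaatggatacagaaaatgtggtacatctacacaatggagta
Olfr31 chr14:15165873-15166072: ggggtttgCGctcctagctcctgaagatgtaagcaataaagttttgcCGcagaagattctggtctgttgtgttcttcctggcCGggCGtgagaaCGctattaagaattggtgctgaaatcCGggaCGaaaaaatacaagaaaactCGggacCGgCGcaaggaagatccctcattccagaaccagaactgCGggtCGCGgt
Olfr370 chr8:86065591-86065790: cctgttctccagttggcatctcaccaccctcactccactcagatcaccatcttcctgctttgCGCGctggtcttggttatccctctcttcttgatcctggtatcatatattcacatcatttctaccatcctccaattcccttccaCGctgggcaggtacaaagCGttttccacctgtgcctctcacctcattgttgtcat

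The next windows, upstream of Olfr1389 and Olfr768, are shown because a peak was called there with TGF-β1 alone, in all 3 samples. They hold 7 and 3 CpG dinucleotides.
Olfr1389 chr11:49239812-49240011: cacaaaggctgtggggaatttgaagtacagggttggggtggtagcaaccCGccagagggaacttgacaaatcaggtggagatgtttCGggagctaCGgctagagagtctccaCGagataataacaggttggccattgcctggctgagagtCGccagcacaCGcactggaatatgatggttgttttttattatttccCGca
Olfr768 chr10:128531919-128532118: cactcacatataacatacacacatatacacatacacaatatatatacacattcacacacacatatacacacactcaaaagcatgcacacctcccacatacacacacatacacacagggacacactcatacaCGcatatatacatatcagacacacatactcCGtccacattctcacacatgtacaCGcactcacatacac

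The last windows lie in the gene model of Olfr56 and downstream of Olfr90, members of a fixed list of receptors that have been detected in kidney. Each of these genes had at least 1 peak in every sample. The region of the Olfr90 window itself had a peak in 5 samples and none in control replicate 3. The Olfr56 window lies in an intron of its long gene model and also inside another protein-coding gene, 9930111J21Rik2.
Olfr56 chr11:48837274-48837473: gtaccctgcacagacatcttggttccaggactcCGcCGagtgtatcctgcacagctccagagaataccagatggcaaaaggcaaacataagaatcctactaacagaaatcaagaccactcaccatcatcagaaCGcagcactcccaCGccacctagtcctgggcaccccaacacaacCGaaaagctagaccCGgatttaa
Olfr90 chr17:37217884-37218083: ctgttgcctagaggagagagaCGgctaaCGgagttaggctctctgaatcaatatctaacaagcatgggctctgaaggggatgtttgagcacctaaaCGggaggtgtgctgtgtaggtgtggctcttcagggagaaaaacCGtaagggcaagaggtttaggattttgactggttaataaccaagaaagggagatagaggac

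Olfactory receptor genes were poor in peaks in every sample. Control replicates 1, 2 and 3 had 7.78, 9.32 and 10.4 peak summits per Mb of olfactory receptor sequence, against 33.4, 36.9 and 41.0 per Mb of all autosomes. The TGF-β1 samples had 10.8, 10.6 and 10.7 summits per Mb, against 41.5, 41.0 and 43.2. In each sample the density was thus close to a fixed fraction of that sample's own autosomes, between 23.3% and 25.97%. Over the 6 samples the density was 9.93 ± 1.18 per Mb (SD, n = 6) in the 13.6 Mb of receptor sequence and 39.5 ± 3.64 per Mb (SD, n = 6) on the autosomes. The log2 ratio was -1.997 ± 0.057 (SD, n = 6), a 3.99-fold lower density that was found in 6 of 6 samples (exact two-sided sign-flip permutation test, p = 0.03125, the smallest that 6 samples allow, and 0.0382 after Benjamini-Hochberg adjustment over the 11 such tests made here). The size of the ratio depended on how much flank was taken with the genes, with a log2 ratio of -0.89 for summits inside a gene and -1.41 for summits within 20 kb.

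**Figure D1:**
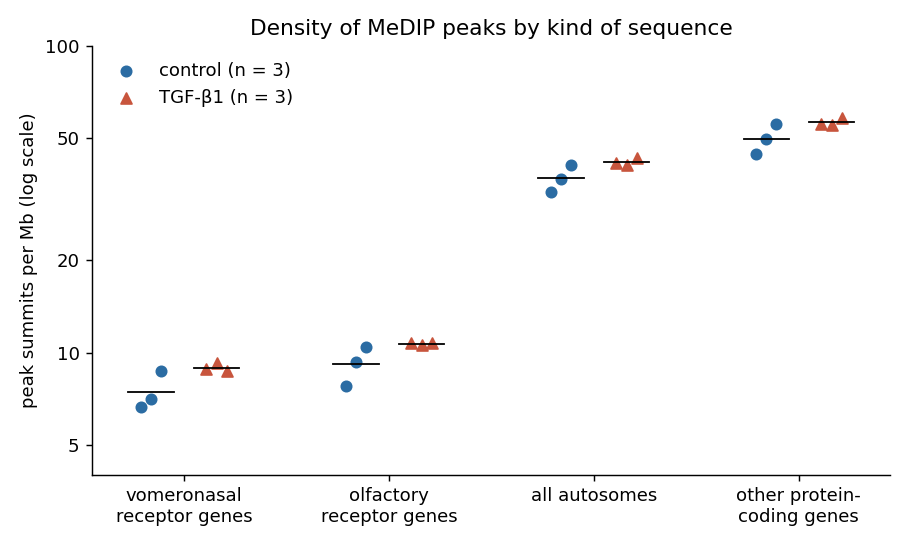
Peak summits per Mb (log axis) in each control sample (circles) and TGF-β1 sample (triangles), with the mean of each group of 3 as a line. Olfactory receptor genes lie between 7.78 and 10.8 per Mb in all 6 samples, near the vomeronasal receptor genes and below the autosomes (33.4 to 43.2) and the other protein-coding genes (44.4 to 58.2).

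The vomeronasal receptor genes, the other large families of chemoreceptors in the mouse, were even poorer in peaks. Their 326 genes of the Vmn1r and Vmn2r families, taken by the same 5-kb rule, had 8.20 ± 1.08 summits per Mb (SD, n = 6). The density of the olfactory receptor genes was 1.21-fold higher (6 of 6 samples, exact sign-flip permutation test, p = 0.03125, adjusted p = 0.0382). The 2 families differed in how much of their sequence is found once in the genome. Of all 49-base stretches, the read length in the file headers, 88.9% of those in olfactory receptor sequence occurred once in chromosomes 1 to 19, X and Y, against 65.0% in vomeronasal receptor sequence and 89.2% of those sampled along the autosomes. For single 49-base reads, the olfactory receptor sequence therefore offered about as large a share of unique positions as the autosomes. The methods of the study also mention paired reads, which these shares do not cover. The part of read uniqueness in the difference between the families was not tested. All other protein-coding genes had 53.1 ± 5.14 summits per Mb (SD, n = 6), and the olfactory receptor genes were 5.36-fold below them (6 of 6 samples, exact sign-flip permutation test, p = 0.03125, adjusted p = 0.0382).

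Receptor sequence with its 5-kb flanks was also poor in CpG dinucleotides, and the difference in density was smaller when this was taken into account. Olfactory receptor sequence held 4.84 CpG dinucleotides per kb, vomeronasal receptor sequence 4.71 and the autosomes 8.51. Upstream and downstream flanks made up 43.1% and 41.8% of the olfactory receptor sequence and held 4.27 and 4.66 per kb. The olfactory receptor coding exons held 8.84 per kb and were not poorer than the autosomes. Counted per 1000 CpG dinucleotides, olfactory receptor sequence had 2.05 ± 0.24 summits (SD, n = 6) and the autosomes 4.64 ± 0.43 (SD, n = 6), which is 2.27-fold lower in place of 3.99-fold (6 of 6 samples, exact sign-flip permutation test, p = 0.03125, adjusted p = 0.0382).

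The plot of windows by CpG count shows where the receptor sequence departs from the autosomes. Of the 13634 olfactory receptor windows of 1 kb, 29.1% held 0 to 2 CpG dinucleotides and 41.1% held 3 to 5, against 11.6% and 27.5% of 2393222 autosomal windows. Windows with 30 or more made up 0.440% of the receptor windows. Among windows with 6 to 9 CpG dinucleotides, 0.329 ± 0.073% of the receptor windows had a summit (mean and SD over 6 samples) against 1.28 ± 0.11% of the autosomal windows, and the receptor windows were lower in all 6 samples. The same held in 6 of 6 samples for windows with 0 to 2, 3 to 5, 10 to 14 and 15 to 19 CpG dinucleotides. The order turned in the CpG-rich windows. With 20 to 29 CpG dinucleotides, 33.7 ± 4.18% of 167 receptor windows had a summit against 27.3% of autosomal windows, and with 30 or more 25.8 ± 6.12% of 60 receptor windows against 18.6%, and the receptor windows were higher in all 6 samples in both classes. These counts by class are a description and were not tested one by one.

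**Figure D2:**
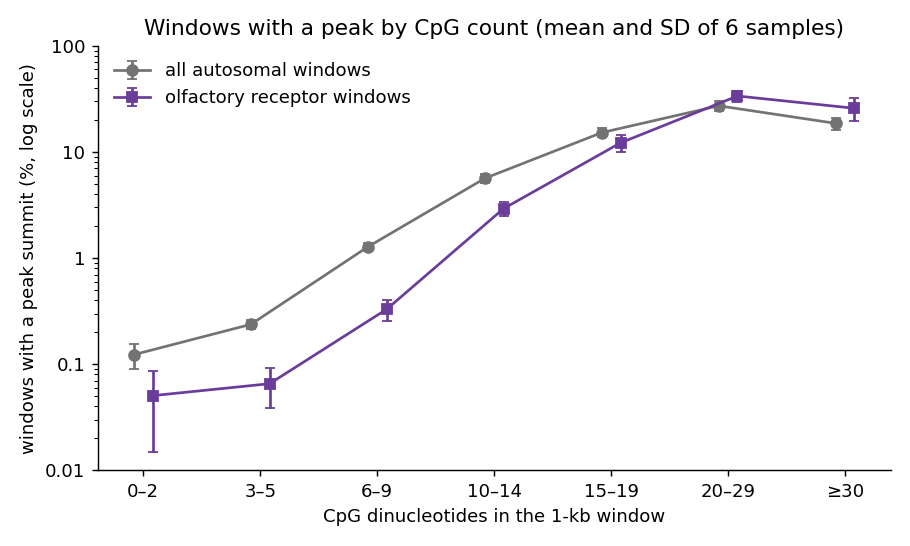
Share of 1-kb windows that hold a peak summit (percent, log axis) by the number of CpG dinucleotides in the window, as the mean and SD of 6 samples. Olfactory receptor windows (squares) lie below autosomal windows (circles) up to 15 to 19 CpG dinucleotides and above them from 20 on.

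When each receptor window was set against the autosomal windows with the same number of CpG dinucleotides, the log2 ratio was closer to 0. A summit was found in 1.002 ± 0.120% of the receptor windows (SD, n = 6), where the autosomal rate at the same CpG counts gives 1.36 ± 0.12% and all autosomal windows gave 3.91 ± 0.36%. The remaining log2 ratio was -0.45 ± 0.07 (SD, n = 6), a 1.37-fold lower share in 6 of 6 samples (exact sign-flip permutation test, p = 0.03125, adjusted p = 0.0382). This comparison was added after the data were seen. At matched CpG counts the vomeronasal receptor windows were also below the autosomes, with a summit in 0.803% where the autosomal rate gives 1.199%, and the olfactory receptor windows were 1.10-fold above the vomeronasal ones (6 of 6 samples, exact sign-flip permutation test, p = 0.03125, adjusted p = 0.0382).

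Within the receptor loci, the coding exons carried the highest density per Mb. The coding sequence had 28.6 ± 4.31 summits per Mb (SD, n = 6) and 8.84 CpG dinucleotides per kb, and it held 179 of the 812 peaks in 7.65% of the sequence. Introns had 15.2 ± 2.55 and untranslated exons 16.8 ± 3.74 summits per Mb. The flanks were lower, with 6.13 ± 0.96 per Mb in the 5 kb upstream and 9.69 ± 1.32 per Mb in the 5 kb downstream, at 4.27 and 4.66 CpG dinucleotides per kb. Upstream flank was the lower of the 2 flanks in every sample, for example with 29 against 43 peaks in control replicate 1 and 37 against 64 peaks in TGF-β1 replicate 1, over 5868 and 5696 kb. Exons of pseudogenes and noncoding models held 2 peaks in all 6 lists together. Per 1000 CpG dinucleotides the coding exons (3.24 ± 0.49) and introns (3.06 ± 0.51) were close to the untranslated exons (3.27 ± 0.73), and the downstream (2.08 ± 0.28) and upstream (1.44 ± 0.23) flanks were lower, so on this scale the coding exons did not lead. These are different sequences of the same 6 samples, and the values are given as a description.

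Most receptor genes had no peak at all. Of 1243 Olfr entries, which carry 1241 symbols, 1055 (84.9%) had no summit inside or within 5 kb in any of the 6 samples, against 84.0% of the vomeronasal receptor genes and 13.8% of the other protein-coding genes, which are longer. Protein-coding Olfr genes and Olfr pseudogenes were alike in this, with no peak near 84.7% of 1106 genes and near 86.4% of 132 pseudogenes. Only 61 genes had a peak in every sample. CpG content graded with these classes, with a median of 3.93 CpG dinucleotides per kb around genes with no peak, 5.94 around the 127 genes with a peak in 1 to 5 samples and 9.54 around those with a peak in all 6. The 8 Olfr genes on the X chromosome, which the rule leaves out, had 0 peaks in every sample.

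The 10 genes with the most peaks fell into few places. Olfr56 on chromosome 11 led, with 4, 4 and 5 peaks in control and 6, 2 and 6 after TGF-β1, but its gene model spans 156499 bp, and with its flanks it had 2.70 peaks per 100 kb. Of its 9 regions, 5 lay inside other protein-coding genes, 1 in Tgtp1 and 4 in 9930111J21Rik2. Olfr247 on chromosome 10, a gene of 963 bp, had 3, 3 and 5 peaks in control and 3, 4 and 3 in TGF-β1 samples. At one locus of chromosome 15, Olfr288 and Olfr287, which overlap and share peaks, had 3 to 5 and 2 to 4 peaks per sample, and their neighbours Olfr286 and Olfr283 had 1 to 3 and 2 to 3. Olfr1512 and Olfr750 on chromosome 14 had means of 2.50 and 2.33 peaks per sample, Olfr54 on chromosome 11 had 2.17, and Olfr1388 on the same chromosome had 2 peaks in every sample. For each of the 10 genes every sample had at least 1 peak, and the counts of the groups overlapped or tied.

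Of 7 receptors on the kidney list, 3 (42.9%) had a peak in any sample and 2 (28.6%) had one in all 6. Over all Olfr genes the shares were 15.1% and 4.91%. The kidney and model lists had medians of 99 and 76 CpG dinucleotides within 5 kb, against 47 for all Olfr genes. Among the kidney receptors with a peak was Olfr56, whose gene model spans 156499 bp. Olfr78, a receptor for short-chain fatty acids that takes part in renin release, had 0 peaks in all 6 samples across its 18751 bp and 5-kb flanks, and so had Olfr558, Olfr1392 and Olfr1373. Olfr90 had 1, 2 and 1 peaks in control and 2, 2 and 1 in TGF-β1 samples, all downstream of the gene. Olfr1393 had 1 peak in 5 of the 6 samples, and control replicate 2 had none. Of 8 receptors that serve as models or have well-known ligands, 3 (37.5%) had a peak in any sample and 0 had one in all 6. Olfr544, which binds azelaic acid, and its neighbour Olfr545 had a peak in 5 of 6 samples each, and Olfr151, the M71 receptor, had 1 peak in control replicate 3 only. Olfr16, Olfr73, Olfr2, Olfr17 and Olfr1507 had 0 peaks in every sample. Both lists were drawn up with earlier results of these data known.

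Genes that act downstream of the receptors or in their choice ranged from no peak to many. Of 16 such genes, 13 (81.3%) had a peak in some sample and 8 (50%) had a peak in all 6, against 86.2% and 61.9% of other protein-coding genes. Ebf1, a transcription factor that binds receptor promoters, had 41, 31 and 35 peaks in control and 35, 34 and 44 in TGF-β1 samples over its 390775 bp. Adcy3, the adenylate cyclase of the odour response, had 4, 7 and 6 peaks in control and 8, 13 and 8 in TGF-β1 samples. These Adcy3 counts did not overlap, but every TGF-β1 sample had more reads than any control sample. The difference was not tested, and how often genes separate in this way is not given here. Gnal, which encodes the olfactory G protein α subunit, had 6.67 peaks per sample on average and 4 regions in all 6 samples. Ano2, Cngb1, Ldb1 and Emx2 each had 1 such region, with 4.33, 1.83, 1.83 and 2.50 peaks per sample. Lhx2 and Rtp1 had 0 peaks in every sample, as had X-linked Cnga2, which encodes a subunit of the olfactory cation channel. These genes are on the whole longer than receptor genes, and the counts are not per length. With flanks, Ebf1 had 9.15 and Ano2 1.20 peaks per 100 kb.

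Clusters of receptor genes differed widely in density. Genes less than 500 kb apart formed 55 clusters, 23 of them with at least 10 genes, which held 1131 of the 1243 genes. All 23 large clusters were below the autosome density of the same sample in all 6 samples, with means from 0.615 to 29.97 summits per Mb and a median of 7.93. The 32 smaller clusters, with 112 genes, had 34.4 ± 3.12 summits per Mb (SD, n = 6) together, against 7.44 ± 1.01 in the large ones, a 4.62-fold difference, and their sequence held 7.57 against 4.57 CpG dinucleotides per kb. Of the smaller clusters, 4 were above the autosomes in all 6 samples, 17 were below in all 6, and 12 of those 17 had no peak in any sample. Across the 23 large clusters, density and CpG content had a Spearman rho of 0.570, a description over clusters that share their 6 libraries.

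The 5 largest clusters were all poor in peaks. The largest, 268 genes from Olfr987 to Olfr1274-ps on chromosome 2, had 4.39 ± 0.70 summits per Mb (SD, n = 6) at 4.09 CpG dinucleotides per kb, and 21 of its genes had a peak. The cluster of 145 genes from Olfr543 to Olfr692 on chromosome 7, which holds the class I receptors (the fish-like class), had 8.12 ± 1.95 per Mb at 5.14 CpG dinucleotides per kb. The clusters from Olfr151 to Olfr986 on chromosome 9 (97 genes), from Olfr1417 to Olfr1505 on chromosome 19 (67 genes) and from Olfr90 to Olfr136 on chromosome 17 (60 genes) had 7.20 ± 0.97, 10.9 ± 2.23 and 14.2 ± 2.23 per Mb. The densest large cluster, 19 genes from Olfr56 to Olfr1380 on chromosome 11, had 29.97 ± 5.34 per Mb, and the sparsest, 25 genes from Olfr693 to Olfr716 on chromosome 7, had 1 peak in 1 of the 6 lists. Among small clusters, 9 genes from Olfr288 to Olfr279 on chromosome 15 had 108 ± 13.9 per Mb at 12.4 CpG dinucleotides per kb, and the lone gene Olfr370 on chromosome 8 had 105 ± 36.8 per Mb. The small clusters named here were chosen after their values were seen.

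**Figure D3:**
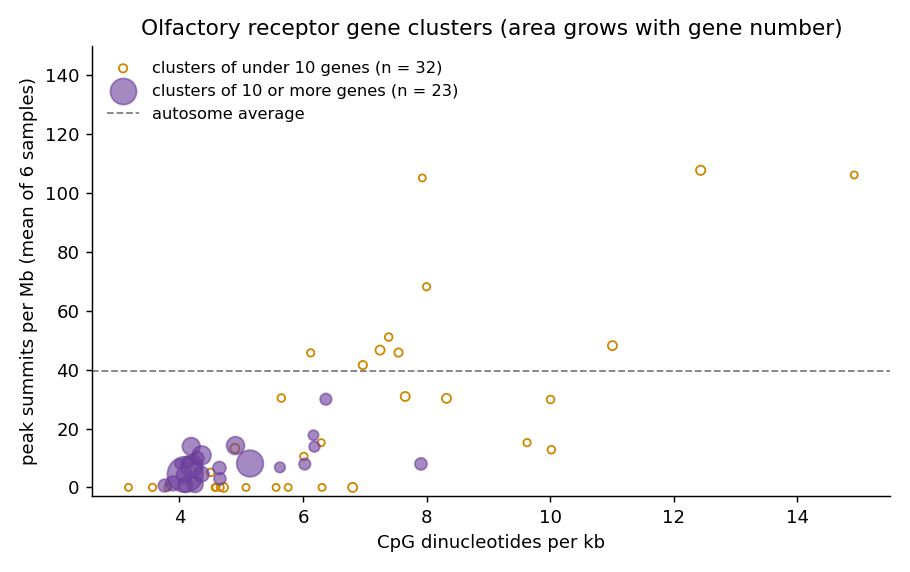
Peak summits per Mb (mean of 6 samples) against CpG dinucleotides per kb for 55 olfactory receptor gene clusters, with the area of a circle growing with its number of genes and the autosome average as a dashed line. All 23 clusters of 10 or more genes (filled) lie below the line, and the clusters above it are small (open).

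The fold enrichment of receptor peaks could not be told apart from that of all autosomal peaks. The median fold enrichment over local background was 6.66, 6.62 and 6.58 in control replicates 1 to 3 and 5.995, 6.52 and 6.52 in TGF-β1 replicates 1 to 3, against 6.27, 6.24 and 6.33 and against 6.09, 6.13 and 6.15 for all autosomal peaks. The log2 ratio was 0.06 ± 0.04 (SD, n = 6), higher in 5 of 6 samples, which did not pass the test (exact sign-flip permutation test, p = 0.0625, adjusted p = 0.0688). The exception was TGF-β1 replicate 1. With summits within 20 kb of a gene the log2 ratio was 0.09 and passed the test (exact sign-flip permutation test, p = 0.03125). Median pileup was 17 to 22 reads in receptor peaks and 19 to 23 in autosomal peaks, and median peak length was 340 to 361 bp and 338 to 358 bp. Receptor peaks held more CpG dinucleotides than autosomal peaks, with a median of 31.2 ± 0.67 against 25.96 ± 0.86 per kb (SD, n = 6).

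The share of peaks found in all 6 samples was slightly higher in receptor sequence over all peaks, but not at each level of enrichment. The share of peaks that overlapped a peak of each of the other 5 samples was 58.5%, 49.6% and 44.4% for control and 42.9%, 43.8% and 43.2% for TGF-β1 replicates 1 to 3. On the autosomes it was 51.1%, 46.1% and 41.5% and then 41.0%, 41.6% and 39.5%. The difference was 3.56 ± 2.02 percentage points (SD, n = 6), in the same direction in 6 of 6 samples (exact sign-flip permutation test, p = 0.03125, adjusted p = 0.0382), although overlaps are mutual and the 6 values are not independent. With peaks of a -log10 q of at least 5 it was 1.03 points and did not pass (exact sign-flip permutation test, p = 0.1875), and with summits inside a gene it was 11.6 points. By fold enrichment, the share was 16% in receptor sequence and 18.1% on the autosomes below 5, 34.7% and 31.99% from 5 to 7, 67.4% and 67.9% from 7 to 10, and 83.3% and 91.3% from 10 on, so receptor peaks were lower in 3 of the 4 classes, given here with no test. Peaks seen in no other sample were also more frequent in receptor sequence in each of the 6 samples, with 9.67 ± 1.46% against 7.96 ± 1.19% (SD, n = 6), a description. Control replicate 1, with the shortest list, had the largest share both in receptor sequence and on the autosomes. Counted by region, 63 of 245 receptor regions (25.7%) were found in every sample and 79 (32.2%) in a single one, against 24.5% and 27.3% of autosomal regions.

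**Figure D4:**
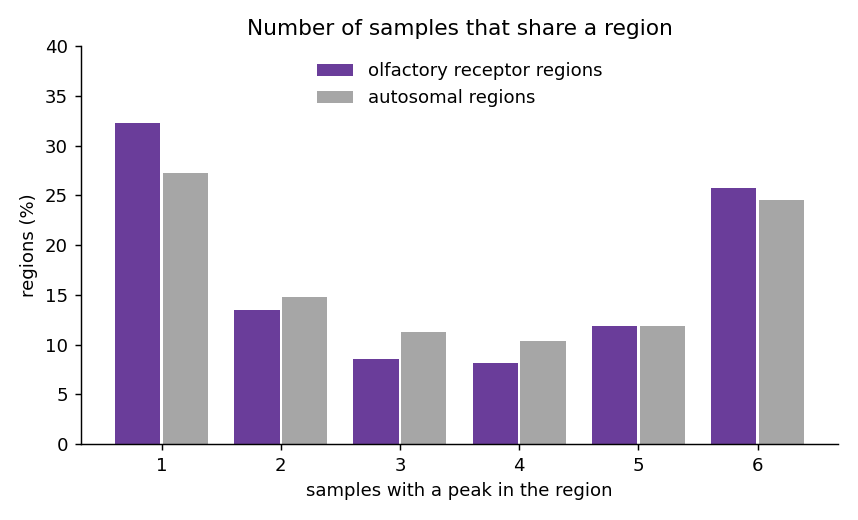
Percentage of regions by the number of samples with a peak in them, for 245 olfactory receptor regions and 166838 autosomal regions. Both sets are highest at 1 sample (32.2% and 27.3%) and next at all 6 samples (25.7% and 24.5%).

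The 63 regions with a peak in every sample lay in 16 cases in a coding exon, in 8 in an intron, in 13 upstream and in 26 downstream of the nearest receptor gene. Their median CpG content was 32 per kb, against 26.005 per kb in the autosomal regions of all 6 samples. The highest pileup was 2596 bp upstream of Olfr461 (chr6:40497340-40497823), with 72, 60 and 79 reads in control and 64, 67 and 83 in TGF-β1 samples and a mean fold enrichment of 18.2. Upstream of Olfr761 (chr17:38090889-38091553) the pileup was 61, 64 and 71 in control and 69, 80 and 64 in TGF-β1 samples. Downstream of Olfr31 (chr14:15165537-15166221) it was 42, 38 and 59 and then 55, 46 and 57. In the coding exon of Olfr370 (chr8:86064721-86065970) it was 48, 38 and 56 and then 46, 39 and 61. In these 4 regions the groups overlapped, and the summits of the first 3 lie in flanks, not in receptor genes.

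Several of these strong regions consist of sequence that is repeated in the genome. Over all receptor regions, 67.6% of the 49-base stretches occurred once in the genome, against 85.8% of those sampled in autosomal regions with a peak and 88.9% of all receptor sequence. In the region at Olfr461 no stretch occurred once, and in those at Olfr761, Olfr177 and Olfr31 15.9%, 17.5% and 8.32% did, with up to 2086, 20605 and 2370 copies of a stretch. At Olfr370 every stretch occurred once. The authors kept uniquely mapped reads, and the peak lists do not show how reads were placed in sequence where no 49-base stretch occurs once. The part of read placement in these values was not tested. The region downstream of Olfr177 (chr16:58867486-58867884) held 3 CpG dinucleotides in all, with pileups of 45, 28 and 47 in control and 64, 72 and 56 in TGF-β1 samples.

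Receptor regions also shared sequence with each other. Of the 245 regions, 106 (43.3%) had a run of 30 bases, on either strand and not a tandem repeat of 1 to 6 bases, in common with another receptor region. How often other autosomal regions share such runs was not counted, so this share cannot be called particular to receptor regions. The largest group that such runs linked, directly or through other members, held 42 regions on 10 chromosomes, 39 of them in flanks and 0 in a coding exon. It included 18 of the 63 regions found in every sample and 3 of the 5 with the highest pileup, those at Olfr761, Olfr177 and Olfr31. Of 56 regions in coding exons, only 12 shared such a run. The printed windows of Olfr761 and Olfr31 had a run of 48 bases with 4 CpG dinucleotides in common. It is shown because it was the longest run common to any pair of the printed windows.
Shared run of Olfr761 and Olfr31: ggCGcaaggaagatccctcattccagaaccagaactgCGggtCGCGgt

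This run, searched on both strands, occurred 910 times on the autosomes. Of these copies 906 (99.6%) lay within a region with a peak in at least 1 sample, and 851 lay within a region with a peak in all 6 samples. Of the 6 copies in olfactory receptor sequence, all 6 lay within a receptor region. The run was taken from 2 of these 6 regions, so its frequency in receptor regions is not compared with that elsewhere. It was not matched to an annotation of repeats, and it was picked after the data were seen, from windows printed for their high pileup. No other repeated run was counted beside it, so how often copies of such runs lie under a peak is not given here.

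A difference between the groups in the share of peaks that fell on receptor genes was not detected. Receptor peaks made up 0.133%, 0.144% and 0.145% of autosomal peaks in control samples and 0.148%, 0.147% and 0.141% in TGF-β1 samples, and the groups overlapped. The difference of the means was 0.00500 percentage points, from 0.140 ± 0.0066% to 0.145 ± 0.0035% (SD, n = 3 each, exact two-sided permutation test, p = 0.4, adjusted p = 0.4, where 3 samples against 3 cannot go below 0.1). Control replicate 1 had the lowest share, and without it the difference was 0.00119 points. Divided by reads, the difference turned, with 12.04 ± 1.64 receptor peaks per megaread in the control group and 11.3 ± 0.28 with TGF-β1 (exact permutation test, p = 0.5).

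None of the 63 receptor regions compared was called different between the groups. Receptor regions without a peak in some sample did not enter this comparison. Regions that lost or gained their peak with treatment were thereby left out, which limits the size of change that could be seen. A lack of calls at a high threshold therefore does not show that receptor regions were unchanged. The pileup of the 63 regions in all 6 samples was compared by limma on the log2 scale, centred on the median of each sample, together with the 41744 regions of the whole genome that had a peak in all 6 samples. With the thresholds of 0.01 on the adjusted p and 2 on the size of the log2 fold change, 0 of 63 receptor regions and 0% of all regions were called. At an unadjusted p below 0.05, 2 of the 63 receptor regions (3.17%) were called and 4.18% of all regions. Both receptor regions were higher with TGF-β1, where the background in that direction was 1.96%, and 0 were lower, where it was 2.22%. The smallest adjusted p of a receptor region was 0.999 by limma. Differences ran from -0.35 to 0.49 with a median of 0.02 on the log2 scale, and 36 of 63 regions were higher with TGF-β1. Scaling by reads in place of medians left 24 of 63 higher, and over all regions 32.005% in place of 49.2%, so the balance of directions rests on the scaling.

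**Figure D5:**
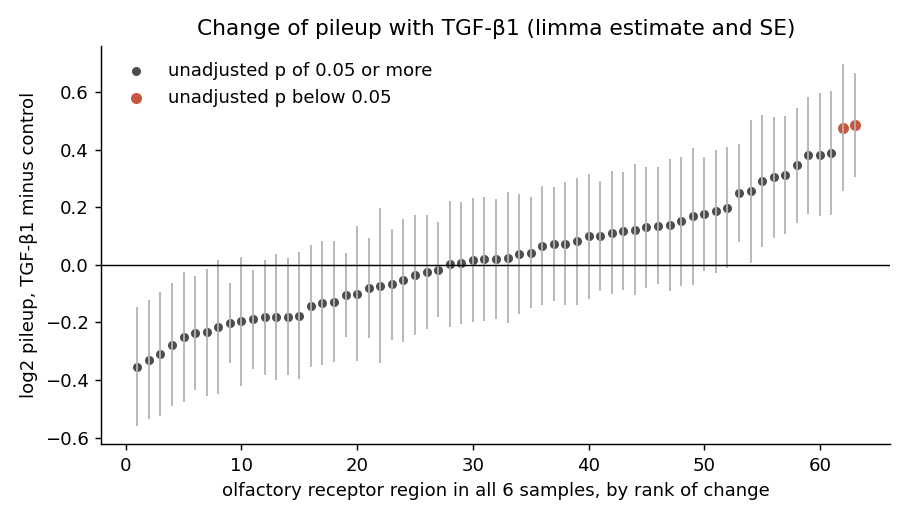
Difference of log2 pileup between TGF-β1-treated and control samples (limma estimate, bars show the standard error) for the 63 olfactory receptor regions with a peak in all 6 samples, in order of size. The estimates run from -0.35 to 0.49, and 2 of them, at the right end, had an unadjusted p below 0.05.

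The region downstream of Olfr177 had the smallest p, with the pileups given above and a log2 difference of 0.49 ± 0.18 (SE, limma, unadjusted p = 0.0112). Before centring, its 3 TGF-β1 values were above its 3 control values, but after centring the groups overlapped. Next came a region 3684 bp downstream of Olfr1431 (chr19:12288431-12288936), with pileups of 20, 23 and 17 in control and 26, 33 and 39 in TGF-β1 samples and a log2 difference of 0.48 ± 0.22 (SE, limma, unadjusted p = 0.0380). In the coding exon of Olfr750 (chr14:51690785-51691288) the pileups were 23, 26 and 31 and then 31, 51 and 41, with a difference of 0.38 ± 0.20. In the other direction, the coding exon of Olfr549 (chr7:109703097-109703557) had 14, 18 and 15 reads in control and 16, 12 and 15 in TGF-β1 samples, a difference of -0.35 ± 0.21. The region in an intron of Olfr56 (chr11:48836405-48837648), which also lies inside 9930111J21Rik2, had 30, 31 and 43 and then 36, 37 and 24, a difference of -0.33 ± 0.21, and the region at Olfr461 gave -0.20 ± 0.14. None of these 6 differences passed the adjusted test, and the centred values of the groups overlapped in each. In regions 4653 bp downstream of Olfr1447 and 4461 bp downstream of Olfr1008, all centred TGF-β1 values were above all control values. Their unadjusted p-values by limma were 0.0804 and 0.151, and how many of all regions separate in this way is not given here. Single libraries moved the 6 differences by over 1.5 times. The difference was 0.32 at Olfr177 without control replicate 2, 0.27 at Olfr1431 without control replicate 3 and 0.18 at Olfr750 without TGF-β1 replicate 2. It was -0.17 at Olfr549 without control replicate 2, -0.11 at Olfr56 without TGF-β1 replicate 3 and -0.12 at Olfr461 without control replicate 1. In every case the sign was kept.

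Of the 245 receptor regions, 158 (64.5%) had peaks from both groups. The share over all autosomal regions is not given here, so that count is no result about receptor regions. Few receptor regions were called in every sample of 1 group and in no sample of the other. Of 245 regions, 1 (0.408%) was called in all 3 control samples and no TGF-β1 sample, where the share of all autosomal regions was 0.233%. In the other direction 2 regions (0.816%) were called, where the share of all autosomal regions was 0.946%. The TGF-β1 regions, 4018 bp upstream of Olfr1389 (chr11:49239705-49240053) and 990 bp upstream of Olfr768 (chr10:128531820-128532255), had pileups of 17, 16 and 21 and of 14, 14 and 14. The lowest pileup called in any TGF-β1 sample was 9 or 10 reads, and the median of receptor peaks in these samples was 20 to 22 reads. A region without a peak in a sample may hold reads below the threshold, which the peak lists do not give.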

How the data were processed

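Genomic DNA of 3 control and 3 TGF-β1-treated samples of mesangial cells was enriched with an antibody to 5-methylcytosine and sequenced. The authors aligned reads to mm9 with BWA (version not given in the sources used here), kept uniquely mapped reads without duplicates, and called peaks in each sample with MACS2 2.1.0.20150731 at a q-value of 0.01 and without an input control. Per the file headers, reads were 49 bases and the regional background spanned 10000 bp. The deposited peak lists give the pileup signal, which is not scaled for depth, the fold enrichment as a ratio over local background, and −log10 of the q-value.

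Summits were assigned with GENCODE vM1 gene models on NCBIM37, the same assembly as mm9. Peaks were joined into regions by an overlap of at least 1 bp. Receptor and autosome values were compared within samples by an exact two-sided sign-flip permutation test over 6 samples, and groups by an exact permutation test of 3 against 3. Groups were compared on log2 pileup, after subtracting the median of the sample, with limma 3.58.1 in R 4.3.3 with Benjamini-Hochberg adjustment, a step tested on simulated data. Other steps used Python 3.11.15 with numpy 2.4.6, pandas 2.3.3 and scipy 1.17.1. The thresholds set for limma were an adjusted p below 0.01 and a log2 fold change beyond 2. Depth is given by the reads in the headers, and the precision of a count of peaks was taken from the spread over samples.

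Named were the receptors of a kidney list and a model list, the 10 genes with the most peaks, the 5 strongest regions present in all samples, 3 regions a direction by smallest limma p, regions called in every sample of 1 group and none of the other, the 5 largest clusters with the densest and the sparsest large cluster, and signalling genes with a region in all 6 samples. The members and lists were chosen with earlier results of these data known. Olfr160, on the model list, has no entry under that symbol in the gene models and is not analysed here. The region called in the control group alone is counted, but its place and sequence are not reported here. Alternatives were other flanks, stricter peaks, other scaling, the replicate block and leaving out each sample.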

Additional observations from a re-analysis of the deposited data

How the results depend on the processing

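Of 168 values recomputed under an alternative, 130 kept their direction and their side of the threshold or, for counts, stayed within 1.5 times, 2 turned, 25 no longer passed, 1 newly passed and 10 counts moved. The difference in sharing was 1.03 percentage points at a −log10 q of at least 5, and no longer passed. The difference in the share of peaks between the groups turned to -0.00162 percentage points for summits inside a gene and to -0.738 peaks per megaread. The log2 ratio of fold enrichment was 0.0897 within 20 kb and passed. limma called 5 of 133 receptor regions (3.76%) at an unadjusted p below 0.05 when regions in at least 3 samples entered, against 4.05% of all 98681 regions. The sharing value at the stricter q was the only one that no longer passed with no sample left out. All other values that no longer passed had 1 sample left out, where a sign-flip p cannot go below 0.0625. The cause of the remaining changes was not tested.

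Leaving out 1 sample gave a log2 density ratio of -2.01 to -1.98, a log2 enrichment ratio of 0.0574 to 0.0801 and a difference in sharing of 2.86 to 4.96 points. The log2 difference from other genes was -2.43 to -2.40 and from vomeronasal receptor genes 0.253 to 0.296, and that in the share of peaks was 0.00119 to 0.00715 points. With 5 samples the smallest sign-flip p is 0.0625, so none of these could pass. limma called 1 to 5 receptor regions, with 5 of 78 (6.41%, all regions 6.15%) without control replicate 1, 4 of 65 (6.15%, all regions 3.40%) without TGF-β1 replicate 1 and 1 of 65 (1.54%, all regions 3.65%) without TGF-β1 replicate 2. Regions called in control only numbered 1 to 2, with 2 without control replicate 1 or TGF-β1 replicate 2. Those called with TGF-β1 only numbered 2 to 6, with 4, 6 and 5 without control replicates 1, 2 and 3 and 6 without TGF-β1 replicate 2. A rule over 5 samples is easier to meet, so counts of regions called in 1 group only can rise in any set of regions. Their shares over all autosomal regions under these settings are not given here, and the counts are no result about receptor regions.

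Same-numbered samples had correlations of deviations of -0.0464, 0.0432 and -0.130, and differently numbered ones of -0.124 to 0.168. With 3 samples a group, these values cannot decide whether samples of the same number belong together. With the replicate block the share difference had an exact permutation p of 0.75. In that fit limma called 2 of 63 receptor regions (3.17%) at an unadjusted p below 0.05, against 3.67% of all regions. Alternatives added after seeing the data, which left out long gene models or sequence near other genes, matched windows on CpG count or divided by CpG, changed no direction. Without an input control, copy number and mappability enter every pileup, and 3 samples a group limit the comparison of groups.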
